A study of Mus musculus with 7 samples.

Results

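The comparison described here sets 1 array of mouse embryonic fibroblasts (MEFs) labelled Utx KO with doxycycline (DOX) against 1 array of MEFs labelled Utx WT without DOX, 2 of the 7 arrays of the series. Both libraries come from V19-OSKM MEFs, labelled genotype UTX-/Y with DOX and genotype UTX+/Y without it, in which DOX is meant to switch on a cassette of 4 reprogramming genes, Pou5f1 (Oct4), Sox2, Klf4 and Myc (OSKM). The other arrays hold MEFs labelled Utx KO without DOX, WT MEFs with DOX, V6.5 embryonic stem cells (ESCs) of genotype UTX-/Y and UTX+/Y, and fibroblasts made from Nanog-/- ESCs that had carried OSKM on a lentivirus for 8 days. The pair was selected on the measured values themselves: its whole profiles were the most alike among the 4 MEF arrays, so its small number of differences follows from that choice. The labels give 1 growth medium, a 2i/LIF medium for ESCs, for all samples, fibroblasts included. Of the 21811 rows of the table, 14894 had 1 gene symbol, which gave 13562 genes, each represented by the row whose mean across all arrays was highest.

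Kdm6a on the X chromosome encodes Utx, a demethylase of histone H3 lysine 27, whose methylated form is the mark with which Polycomb complexes hold developmental genes silent. The series concerns the part of Utx in reprogramming. MEF cultures are made from whole trimmed embryos and are known to hold macrophages beside fibroblasts, so that macrophage transcripts are a regular feature of such RNA. Each condition had 1 array. The differences below therefore have no replicate check and no p-value, the labels of the pair differ in genotype and in DOX at once, and these 2 factors cannot be told apart. All levels are deposited log2 values, and a difference is the library labelled KO with DOX minus WT MEFs without DOX on the log2 scale.

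The DOX label of the KO library was not borne out by the induced factor. Pou5f1, which encodes Oct4, read 5.12 in the library labelled KO with DOX and 8.19 in WT MEFs without DOX. It read 11.26 in the library labelled KO without DOX and 12.59 in WT MEFs with DOX. The library labelled KO with DOX thus had the lowest Pou5f1 value of the 7 arrays, below an uninduced one. Sox2 (5.97 against 5.18) was under the floor in both libraries of the pair. It was also under it in the library labelled KO without DOX (5.47) and in WT MEFs with DOX (5.31), so it does not bear on the DOX labels. Klf4 (a difference of -0.49) and Myc (10.32 against 10.99) lay within 2-fold. The floor, 7.34, is the 40th percentile of all values and marks the level under which a gene is treated as not detected. A measured gene is one with values on the arrays, above the floor or not.

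Kdm6a itself differed by less than 2-fold in this pair. It read 7.57 in the library labelled KO with DOX and 8.22 in WT MEFs without DOX, a difference of -0.65. It read 6.32 in the library labelled KO without DOX against 8.93 in WT MEFs with DOX, and 7.97 against 9.12 in KO and WT ESCs. The value of the library labelled KO with DOX was therefore lower than in both WT MEF libraries, but higher than in the other KO-labelled one. The sources used here do not say whether the probes lie in the deleted part. Kdm6b, the related demethylase of the same mark, read 9.10 and 8.78.

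A gene of the Y chromosome separated the KO-labelled from the WT libraries more widely. Eif2s3y, which encodes a subunit of a translation initiation factor, read 5.42 in the library labelled KO with DOX and 8.28 in WT MEFs without DOX, a difference of -2.85. It read 4.46 in the library labelled KO without DOX against 8.56 in WT MEFs with DOX, and 4.19 against 8.52 in KO and WT ESCs. All 3 KO-labelled libraries were under the floor and all 3 WT libraries above it. Kdm5d, a Y-linked histone demethylase gene, read 5.51 and 6.93 in the pair, both under the floor. Uty, a relative of Utx encoded on the Y chromosome, read 7.61 and 7.34, and Xist, the RNA that coats the inactive X chromosome, read 10.98 and 11.06, so neither separated the 2 libraries. The genotype labels name a Y chromosome in both. Xist well above the floor in both libraries and Eif2s3y under it in the KO-labelled one go against those labels, whereas Uty in the KO-labelled library and Eif2s3y in WT MEFs were above the floor. Kdm5d does not bear on them, because the floor does not tell an absent gene from a weakly expressed one.

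Both libraries of the pair had the profile of fibroblasts. Of 10 fibroblast markers, 10 were above the floor on each of the 2 arrays, and their differences ran from -0.43 to 0.90. Of 7 measured epithelial markers and 7 pluripotency markers, 0 were above the floor on either array. The 9 macrophage markers did not keep this balance: 4 were above the floor in the library labelled KO with DOX and 9 in WT MEFs without DOX, and 9 of 9 were at least 2-fold lower in the KO-labelled library.

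Across the 9024 genes above the floor on at least 1 of the 2 arrays, 170 were at least 2-fold higher (1.88% of genes tested) and 237 lower (2.63%) on the array labelled KO with DOX, 4.51% in either direction. The median gene differed by 0.01, and the median size of the difference was 0.23. The larger differences were mostly downward, with 59 genes 4-fold or more lower and 14 higher. In 141 of the 237 lower genes and 77 of the 170 higher ones the smaller value lay under the floor, so their folds are bounded from below by the floor. The nearest genes inside the 2-fold threshold were Brca1 at 1.001 and Pamr1 at -1.001, and the nearest outside it were Gprc5c at 0.996 and Ptprj at -0.999. Over the 21811 rows the 2 arrays correlated at r = 0.972, and the other 5 pairs of MEF arrays had between 888 and 2530 genes 2-fold apart.

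**Figure D1:**
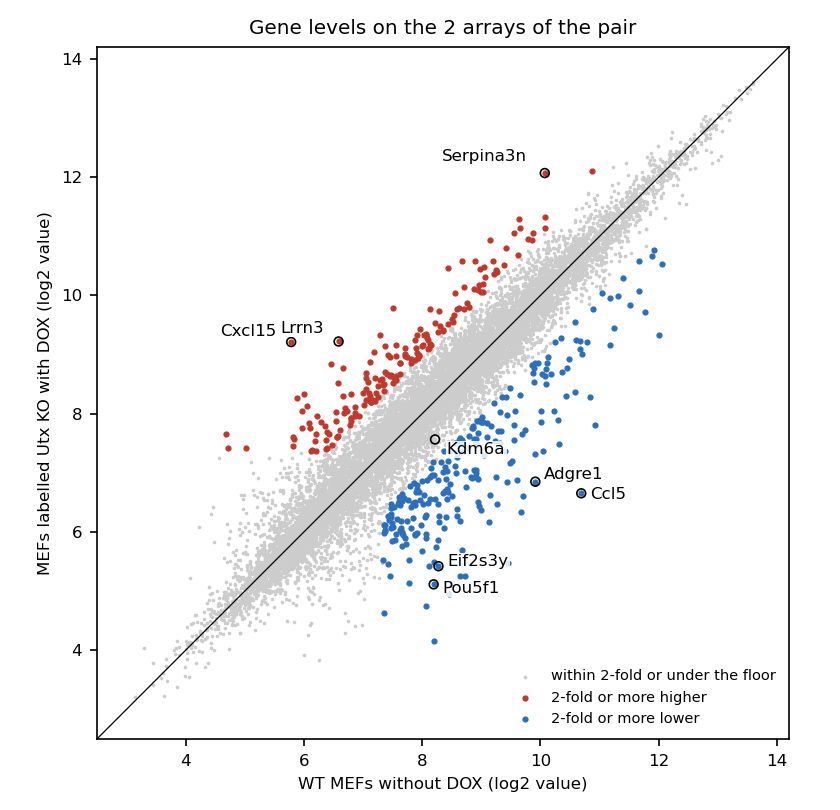
Level of each gene in MEFs labelled Utx KO with DOX (vertical axis, log2 value) and in WT MEFs without DOX (horizontal axis, log2 value), 1 array each, with the line of equal values. The 170 genes at least 2-fold higher are red and the 237 lower are blue; Ccl5, Adgre1, Eif2s3y and Pou5f1 lie far below the line, Cxcl15 and Serpina3n above it, and Kdm6a close to it.

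Macrophage genes made up the clearest group of lower genes. Of the 27 measured members of a macrophage and leukocyte list, 26 were above the floor and 25 of these were at least 2-fold lower, against 2.63% of all genes tested. The list median, taken here and below over all measured members, was -1.81, beside 0.01 for all genes tested. The exception among the 26 was Trem2, a lipid receptor of macrophages, at -0.94. In bulk RNA such as this, fewer macrophages and less RNA per macrophage cannot be told apart.

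Adgre1, the surface marker F4/80, read 6.85 in the library labelled KO with DOX and 9.91 in WT MEFs without DOX, at least 5.95-fold lower. It read 5.21 in the library labelled KO without DOX, 4.18 in WT MEFs with DOX, 4.28 and 4.43 in KO and WT ESCs, and 10.04 in the Nanog KO fibroblasts. Among the 4 MEF libraries, WT MEFs without DOX were thus the only one above the floor. Spi1, which encodes PU.1, the transcription factor that directs macrophage development, read 6.36 and 8.99 in the pair. Csf1r, the receptor for the growth factor of macrophages, read 6.63 and 9.15. Lyz2, the lysozyme of macrophages, read 10.52 and 12.06 and so stayed well above the floor in both.

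Several of the 15 lowest genes encode parts of the phagocyte's defence. Clec4a1, a lectin receptor of myeloid cells, read 4.15 in the library labelled KO with DOX and 8.20 in WT MEFs without DOX. Clec4e, the receptor Mincle that recognises mycobacterial glycolipid, read 4.95 and 8.45. Cybb, the catalytic subunit of the phagocyte oxidase, read 6.33 and 9.66, at least 5.01-fold lower. These 3 were under the floor in the KO-labelled library and above it in the WT library. The same held for 14 of the 15 lowest genes, so their folds are bounds. They ran from at least 1.65-fold (Serpinb2) to at least 10.2-fold (Ccl5). Acod1, which makes the antimicrobial metabolite itaconate, differed by -3.47, Igsf6 by -3.97, Ms4a6c by -3.39, Cd52 by -2.97 and Gpr84 by -2.97. The 3 genes of the complement component C1q were all lower, with C1qa at -1.81, C1qb at -1.79 and C1qc at -2.01.

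The macrophage list was mostly under the floor outside WT MEFs without DOX and the Nanog KO fibroblasts. Its median level was 6.85 in the library labelled KO with DOX and 8.91 in WT MEFs without DOX. It was 6.07 in the library labelled KO without DOX and 5.22 in WT MEFs with DOX. KO and WT ESCs had 5.07 and 5.24, and the Nanog KO fibroblasts, whose array has a higher median over all rows (8.55 against 7.68 to 7.84), had 7.72. Of the 27 members, 10 were above the floor in the library labelled KO with DOX and 26 in WT MEFs without DOX. There were 5 above it in the library labelled KO without DOX, 2 in WT MEFs with DOX, 2 in each ESC library and 18 in the Nanog KO fibroblasts. Medians under the floor are given as values and no order is read from them.

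**Figure D2:**
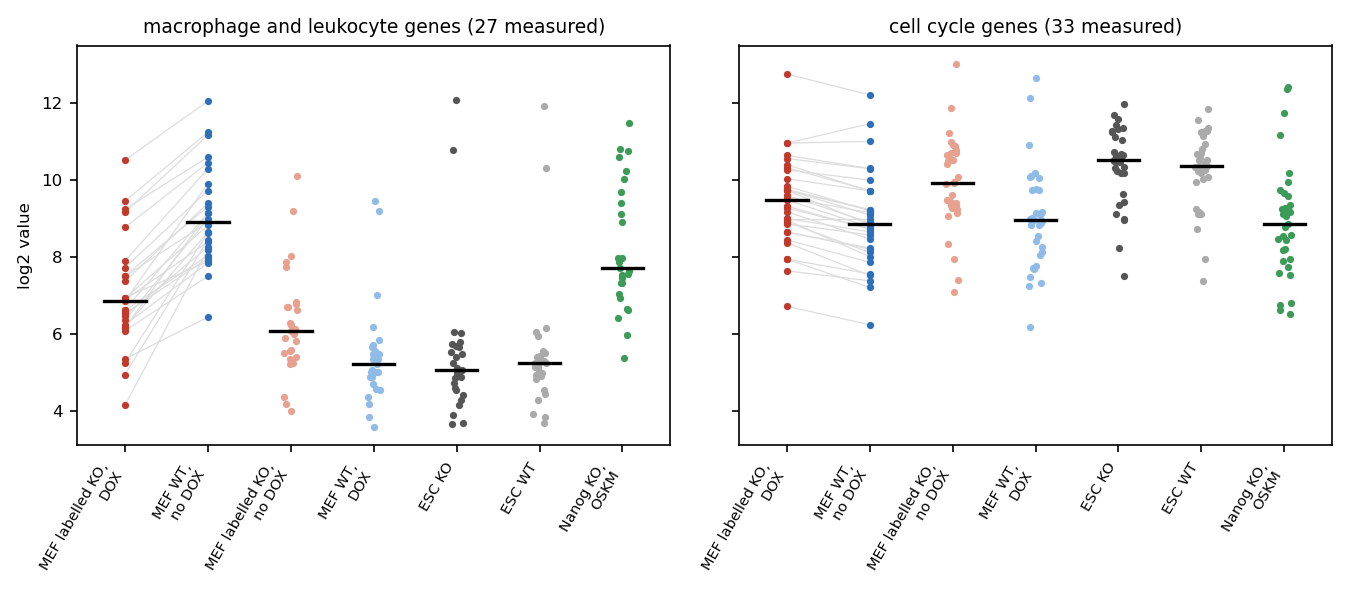
Level (log2 value) of each measured member of the macrophage and leukocyte list (left, 27 genes) and the cell cycle list (right, 33 genes) on the 7 arrays, with MEFs labelled KO with DOX and WT MEFs without DOX first, the median of each array as a black bar, and grey lines joining a gene between the 2 arrays of the pair. The macrophage median is 6.85 in the first and 8.91 in the second, and the cell cycle median 9.49 and 8.85.

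Promoters of 4 of the genes are shown because they were at least 2-fold lower members of the macrophage, chemokine and interferon lists (Clec4a1, Ccl3 and Cxcl10) or had the largest difference in the other direction (Cxcl15). They were picked after their values were seen. The sequences are those of RefSeq for GRCm38.p6, from 250 bases before to 50 bases after the start of the gene, 5′ to 3′ on the gene's strand. Capitals in Clec4a1 (chr6:122921598-122921897, plus strand) and Ccl3 (chr11:83649329-83649628, minus strand) mark GAGGAA on either strand, the core that PU.1 binds. Capitals in Cxcl10 (chr5:92348840-92349139, minus strand) mark the interferon response element, searched as GAAA and GAAA with any 2 bases between, and the kappa B site of NF-kappa-B, searched as GGGA and TTCC with any 2 bases between. The sites TTGCNNAA of C/EBP and TGANTCA of AP-1 were searched too and are not in capitals; Cxcl10 has 1 of the second kind. Cxcl15 (chr5:90794284-90794583, plus strand) has none of these 5 motifs and is given in lower case.
Clec4a1: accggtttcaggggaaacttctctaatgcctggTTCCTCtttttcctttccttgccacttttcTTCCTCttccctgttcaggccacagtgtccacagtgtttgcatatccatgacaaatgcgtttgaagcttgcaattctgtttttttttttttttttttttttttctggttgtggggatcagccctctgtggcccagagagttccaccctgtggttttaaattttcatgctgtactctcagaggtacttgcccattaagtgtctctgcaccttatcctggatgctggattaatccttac
Ccl3: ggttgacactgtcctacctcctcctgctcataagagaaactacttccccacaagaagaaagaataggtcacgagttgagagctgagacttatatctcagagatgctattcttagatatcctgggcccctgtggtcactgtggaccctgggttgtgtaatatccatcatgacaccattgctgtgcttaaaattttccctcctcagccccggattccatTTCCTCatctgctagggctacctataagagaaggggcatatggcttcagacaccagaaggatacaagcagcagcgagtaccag
Cxcl10: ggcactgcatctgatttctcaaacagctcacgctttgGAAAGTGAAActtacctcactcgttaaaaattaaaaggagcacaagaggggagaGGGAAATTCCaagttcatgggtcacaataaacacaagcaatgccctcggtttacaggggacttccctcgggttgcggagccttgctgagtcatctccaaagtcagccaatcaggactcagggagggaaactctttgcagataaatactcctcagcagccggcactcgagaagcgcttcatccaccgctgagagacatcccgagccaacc
Cxcl15: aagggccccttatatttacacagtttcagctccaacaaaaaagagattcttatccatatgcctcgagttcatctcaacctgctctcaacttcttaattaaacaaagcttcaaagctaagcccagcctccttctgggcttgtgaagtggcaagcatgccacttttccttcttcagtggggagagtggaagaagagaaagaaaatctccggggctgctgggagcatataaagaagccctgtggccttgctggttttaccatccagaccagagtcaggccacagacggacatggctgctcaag

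The GAGGAA core was common in the promoters of the macrophage list. With 1 promoter per gene, it stood in 14 of the 19 members with a sequence (73.7%), in 74 of 175 lower genes (42.3%) and in 29 of 133 higher genes (21.8%), beside 28.3% of 27025 promoters. The interferon response element stood in 10 of 19 interferon-stimulated genes (52.6%) beside 3.49% of all promoters. The kappa B site stood in 4 of 17 chemokine and cytokine genes (23.5%) beside 1.43%. Among lower and higher genes the interferon element stood in 8.57% and 5.26%, and the kappa B site in 4% and 2.26%. Most members of these macrophage and chemokine lists are themselves lower genes, so the list shares and the lower-gene shares are not separate. Both strands were searched, the kappa B site can overlap GAGGAA, and a match describes letters and does not show that a factor binds.

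Chemokines and cytokines formed the next group. Of 24 measured members, 20 were above the floor, 15 of them at least 2-fold lower and 1, Cxcl15, higher. Of all genes tested, 2.63% were lower and 1.88% higher. The list median was -1.58. Ccl5, which attracts T cells and monocytes, read 6.66 in the library labelled KO with DOX and 10.69 in WT MEFs without DOX, at least 10.2-fold lower. It read 6.64 in the library labelled KO without DOX, 5.93 in WT MEFs with DOX, 5.95 and 5.97 in the ESCs, and 9.32 in the Nanog KO fibroblasts, so WT MEFs without DOX had the highest value of the series. Ccl3, made by activated macrophages, read 7.81 and 10.93, and Ccl2, the main attractant of monocytes, differed by -2.67. Cxcl12, a fibroblast chemokine that retains stem cells in their niche, was at 0.64, and the alarmin Il33 at -0.08. Macrophage genes were lower in the same library, and their part in this list was not tested.

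Some of the lower genes stand next to each other in the genome. In RefSeq order there were 5 runs of at least 3 neighbouring measured genes that were all at least 2-fold apart the same way, with 19 genes, and all 5 ran downward. One held Ccl5, Ccl9, Ccl6, Ccl3, Wfdc17 and Wfdc18, with differences from -4.04 to -1.12. Another held Ccl2, Ccl7 and Ccl11, another the 3 C1q genes, and another the lectin receptors Clec4a1, Clec4n, Clec4d and Clec4e, with -4.05, -1.82, -2.70 and -3.50. Clec4n read 7.34 in WT MEFs without DOX, barely above the floor. The last held Hoxc8, Hoxc6 and Hoxc5, which are described further on.

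Interferon-stimulated genes were lower as well. Of 14 members above the floor, 6 were at least 2-fold lower and 0 higher, against 2.63% and 1.88% of all genes tested. The median over 24 measured members was -0.55. Cxcl10, a chemokine induced by interferon, read 5.95 in the library labelled KO with DOX and 7.87 in WT MEFs without DOX. Ifit1, which binds foreign RNA, read 6.19 and 7.74, and Trim30a 6.07 and 7.82. These 3 were near the floor in the WT library and under it in the other. Tap1, the peptide transporter of antigen presentation, was at 0.65 and Stat2 at 0.03, so the members did not move together.

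Immediate early genes, which answer growth factors and stress within minutes, showed a weaker difference of the same direction. Of 19 members above the floor, 6 were at least 2-fold lower and 0 higher, against 2.63% and 1.88% of all genes tested. The list median was -0.40. The transcription factor gene Egr2 read 7.60 in the library labelled KO with DOX and 9.09 in WT MEFs without DOX, and Fosl1 read 8.31 and 9.65. Fos differed by -1.13, Atf3 by -1.34 and Dusp1 by -1.03, whereas Junb was at 0.34 and Ier2 at 0.00. Fosb was at -1.08, and within 2-fold when the arrays were quantile normalized (-0.99). The macrophage markers given above differed between the same 2 arrays, and their part in the interferon and immediate early lists was not tested.

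Lower genes outside the immune lists included several that were high in both WT MEF libraries. Serpinb2, an inhibitor of plasminogen activators, read 4.75 in the library labelled KO with DOX and 8.06 in WT MEFs without DOX. It read 4.69 in the library labelled KO without DOX against 7.87 in WT MEFs with DOX. Sema7a, a membrane-anchored semaphorin, read 6.85 and 9.44, and then 7.18 against 9.55. Gmfg, a regulator of actin branching, read 6.51 and 8.94, and then 6.80 against 9.24. These 3 genes are among those at least 2-fold lower in both MEF pairs, so their split by label follows from how they were picked. Of the lower genes above the floor in the other 2 MEF libraries, 47.6% were lower there too. The share was 9.23% of all genes above the floor in both pairs.

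Sprr1a, a precursor of the cornified envelope of skin, read 7.20 and 9.52 in the pair, and 6.89 in the library labelled KO without DOX against 11.98 in WT MEFs with DOX. Sfn, an epithelial 14-3-3 protein, read 6.27 and 8.59, and then 5.84 against 11.73. These genes were picked in the same way, and their highest values among the MEF libraries were in WT MEFs with DOX. Nptx2, a neuronal pentraxin, read 6.47 and 9.27 in the pair, and 6.31 against 6.10 in the other MEF libraries, both under the floor. Nes, the intermediate filament nestin, differed by -1.90, and Stmn2, a regulator of neuronal microtubules, by -1.50. The microtubule protein gene Map2 went the other way, at 1.41.

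Cxcl15 led the genes that were higher on the array labelled KO with DOX. Cxcl15, a chemokine that attracts neutrophils in the mouse lung, read 9.21 in that library and 5.79 in WT MEFs without DOX, at least 3.66-fold higher. It read 5.18 in the library labelled KO without DOX, 3.93 in WT MEFs with DOX, 3.77 and 3.91 in the ESCs and 4.74 in the Nanog KO fibroblasts. It was thus above the floor on 1 of the 7 arrays. Lrrn3, a leucine-rich repeat protein of neurons, read 9.22 and 6.59, and 6.51 in the library labelled KO without DOX. Enpep, the aminopeptidase that cleaves angiotensin, read 8.84 and 6.45. Both were highest in the library labelled KO with DOX among the 7 arrays.

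**Figure D3:**
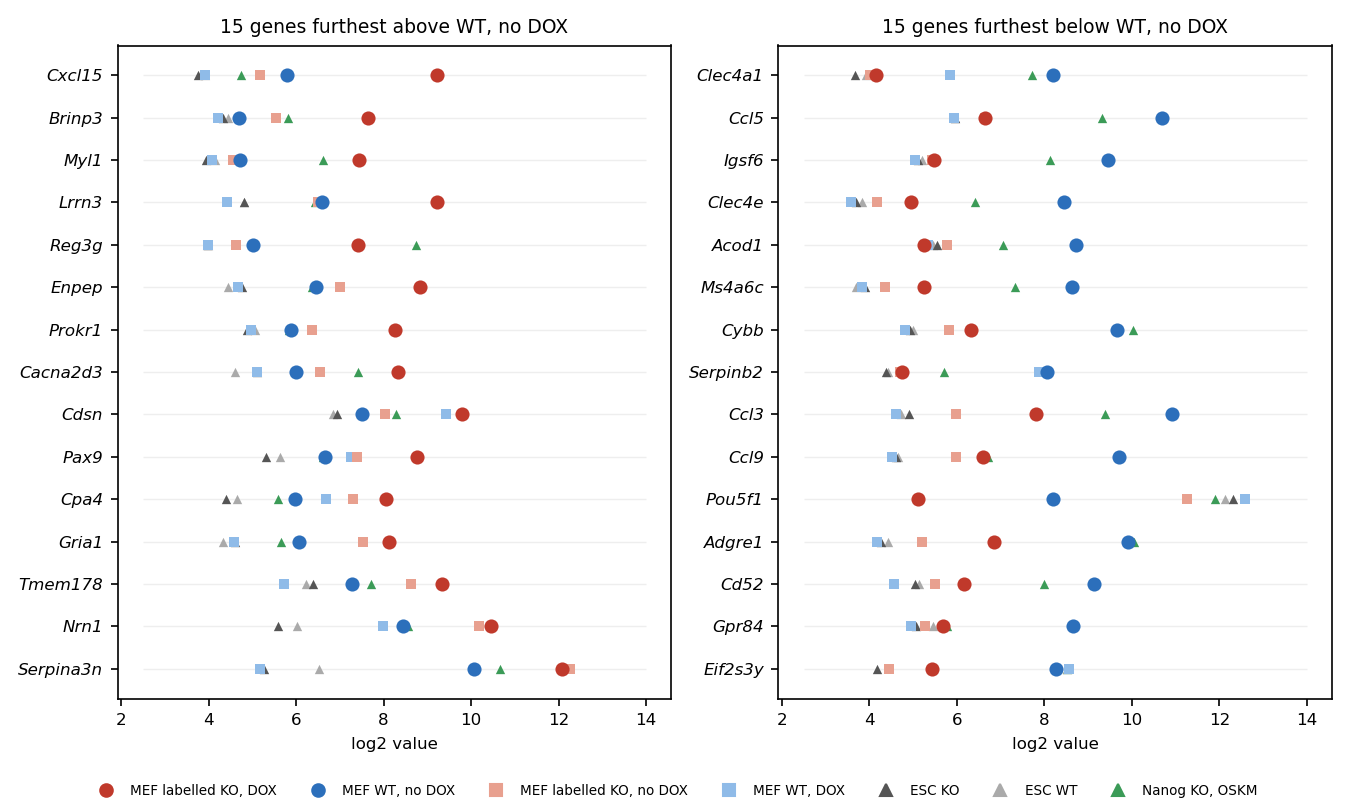
Level (log2 value, horizontal axis) on the 7 arrays of the 15 genes with the largest positive (left) and negative (right) difference between MEFs labelled KO with DOX (large red points) and WT MEFs without DOX (large blue points). Cxcl15 reads 9.21 and 5.79, Ccl5 6.66 and 10.69, and Pou5f1 5.12 and 8.19, with Pou5f1 higher than either on the other 5 arrays.

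The rest of the 15 highest genes had mixed functions. Prokr1, a prokineticin receptor, was at 2.38, Cacna2d3, an auxiliary subunit of calcium channels, at 2.33, and Gria1, a glutamate receptor subunit, at 2.07. Cdsn, the adhesion protein corneodesmosin, read 9.79 in the library labelled KO with DOX and 7.51 in WT MEFs without DOX. Nrn1, a membrane-anchored neurite growth factor, read 10.46 and 8.44. Pax9, a transcription factor of the pharyngeal pouches and the axial skeleton, read 8.77 and 6.67. Brinp3 was at 2.96, Myl1 at 2.71, Reg3g at 2.39, Cpa4 at 2.08 and Tmem178 at 2.04. For 12 of the 15 the WT value lay under the floor, so that their folds are bounds, from at least 1.05-fold (Reg3g) to at least 3.96-fold (Tmem178).

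Genes of the acute phase response went partly the opposite way to the chemokines. Of 12 members above the floor, 4 were at least 2-fold higher, against 1.88% of all genes tested, and 1 was lower, and the median over 15 measured members was 0.22. Serpina3n, an inhibitor of serine proteases, read 12.07 in the library labelled KO with DOX and 10.07 in WT MEFs without DOX. It read 12.26 in the library labelled KO without DOX against 5.17 in WT MEFs with DOX. Lcn2, which binds bacterial siderophores, read 9.60 and 8.50 in the pair, and Steap4, a metalloreductase, read 8.60 and 7.06. The KO-labelled library was thus higher in these 3. Nfkbia, the inhibitor of NF-kappa-B, was lower, at 8.69 and 9.87, and Saa3 was at 0.22.

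Fibroblast identity differed little. Of 25 members of the fibroblast and mesenchymal list above the floor, 2 were at least 2-fold higher and 0 lower. The shares over all genes tested were 1.88% and 2.63%. The median over 27 measured members was -0.02. Col1a1, a chain of type I collagen, read 12.72 in the library labelled KO with DOX and 12.86 in WT MEFs without DOX, and Prrx1, a transcription factor of limb mesenchyme, 11.80 and 11.85. The 2 higher members were Dpt, the matrix protein dermatopontin, which read 10.59 and 8.68, and Cdh2, N-cadherin, which read 10.18 and 8.96. Of 17 collagen genes above the floor, 0 were 2-fold apart in either direction, with a list median of -0.07.

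The matrix and contractile lists held a few lower members. Of 32 genes for matricellular proteins and small proteoglycans, 4 were at least 2-fold lower and 0 higher, against 2.63% and 1.88% of all genes tested. These were Thbs4, a thrombospondin of tendon and muscle (7.32 against 9.90), Prg4, the joint lubricant lubricin (8.05 against 10.22), Eln, elastin (8.85 against 10.10), and Ccn4 at -1.01, which turned to -0.98 with array medians aligned. Of 22 matrix proteases and inhibitors above the floor, Mmp9 (-1.27) and the urokinase gene Plau (-1.07) were lower and Adamts9 (1.01) higher. Adamts9 was within 2-fold after quantile normalization (0.99) and with a mean over its rows (0.94). Of 16 smooth muscle genes, the muscle filament gene Des (-1.05) was lower and 15 lay within 2-fold, among them Acta2, at 12.82 and 12.97. A difference below 0 was found in 14 of the 16, whereas 51.5% of all genes tested had one above 0.

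Skeletal muscle genes were mostly under the floor and fat genes mostly above it. Of 20 measured skeletal muscle genes 5 were above it, and 2 of these were at least 2-fold higher. Myl1, a light chain of fast muscle myosin, read 7.43 in the library labelled KO with DOX and 4.72 in WT MEFs without DOX, so it was at least 1.06-fold higher when the floor is counted. Actc1, the actin of heart and fetal muscle, read 9.16 and 8.01. In the fat list 9 of 10 measured members were above the floor, 2 of them at least 2-fold higher and 1 lower. Of all genes tested, 1.88% were higher and 2.63% lower. Car3, a carbonic anhydrase abundant in adipocytes, read 8.51 and 6.58, and Pparg, the main regulator of fat cell differentiation, 8.01 and 6.87. Cd36, a fatty acid receptor that macrophages also carry, went the other way, at 5.26 and 7.46.

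Growth and patterning signals showed single members rather than whole lists. Of 24 genes of the IGF system and imprinted growth genes above the floor, 3 were at least 2-fold higher and 2 lower. Shares over all genes tested were 1.88% and 2.63%. Peg3, an imprinted zinc finger gene expressed from the paternal allele, read 11.30 in the library labelled KO with DOX and 9.64 in WT MEFs without DOX. Igfbp5 read 12.10 and 10.86, and Sgce, an imprinted sarcoglycan gene, 10.95 and 9.78. Igfbp6 (-1.29) and the imprinted gene Mest (-1.11) were lower, and Igf2 (0.25) and Dlk1 (0.26) lay close to 0. These imprinted genes therefore differed in both directions.

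The Wnt list held 2 higher and 2 lower members among 14 above the floor, against 1.88% and 2.63% of all genes tested. Lgr5, a receptor for R-spondins, read 11.05 in the library labelled KO with DOX and 9.55 in WT MEFs without DOX, and its ligand gene Rspo3 10.44 and 9.25. Both receptor and ligand were thus higher. Sfrp4, a secreted Wnt antagonist, read 9.84 and 11.52, and Wnt2 5.99 and 7.36. In the TGF-beta and BMP list Inhba, the subunit of activin A, was the 1 member of 21 that was 2-fold apart, at -1.16. A difference below 0 was found in 16 of these 21. In the FGF list Fgf2, at -1.44, was the 1 of 11.

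Enzymes of retinoic acid synthesis differed in opposite directions. Aldh1a3, a retinaldehyde dehydrogenase, read 7.36 in the library labelled KO with DOX and 10.05 in WT MEFs without DOX, and 7.92 in the library labelled KO without DOX against 9.74 in WT MEFs with DOX. Aldh1a1, another enzyme of the same step, read 7.57 and 5.84 in the pair and 7.68 against 8.58 in the other 2 MEF libraries. Aldh1a3 was thus lower in both KO-labelled MEF libraries, while Aldh1a1 differed in the first pair and not by 2-fold in the second. Of the 11 genes of the list above the floor, 2 were higher, the other being the retinol carrier Rbp4 (1.19). As many, 2, were lower, the other being the retinoic acid carrier Crabp2 (-1.08). Shares over all genes tested were 1.88% higher and 2.63% lower.

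Cell cycle genes were a little higher as a group without any one reaching 2-fold. Of 32 members above the floor, 29 had a difference above 0, beside 51.5% of all genes tested, and the list median was 0.52, beside 0.01. Foxm1, a transcription factor of the G2 and M phases, read 8.96 in the library labelled KO with DOX and 8.02 in WT MEFs without DOX. Aurkb, a kinase of chromosome segregation, read 9.74 and 8.85, and Ccnd1, cyclin D1, 10.97 and 11.47. Histone genes were higher as well, with a list median of 0.91 and 9 of 9 members above the floor at a difference above 0. At least 2-fold higher were 2 of these, against 1.88% of all genes tested, the linker histone genes H1f2 at 1.47 and H1f1 at 1.12. Cdkn2a, the Ink4a and Arf locus that restrains division, read 8.34 and 7.01 in the pair, and 8.31 in the library labelled KO without DOX against 6.54 in WT MEFs with DOX.

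**Figure D4:**
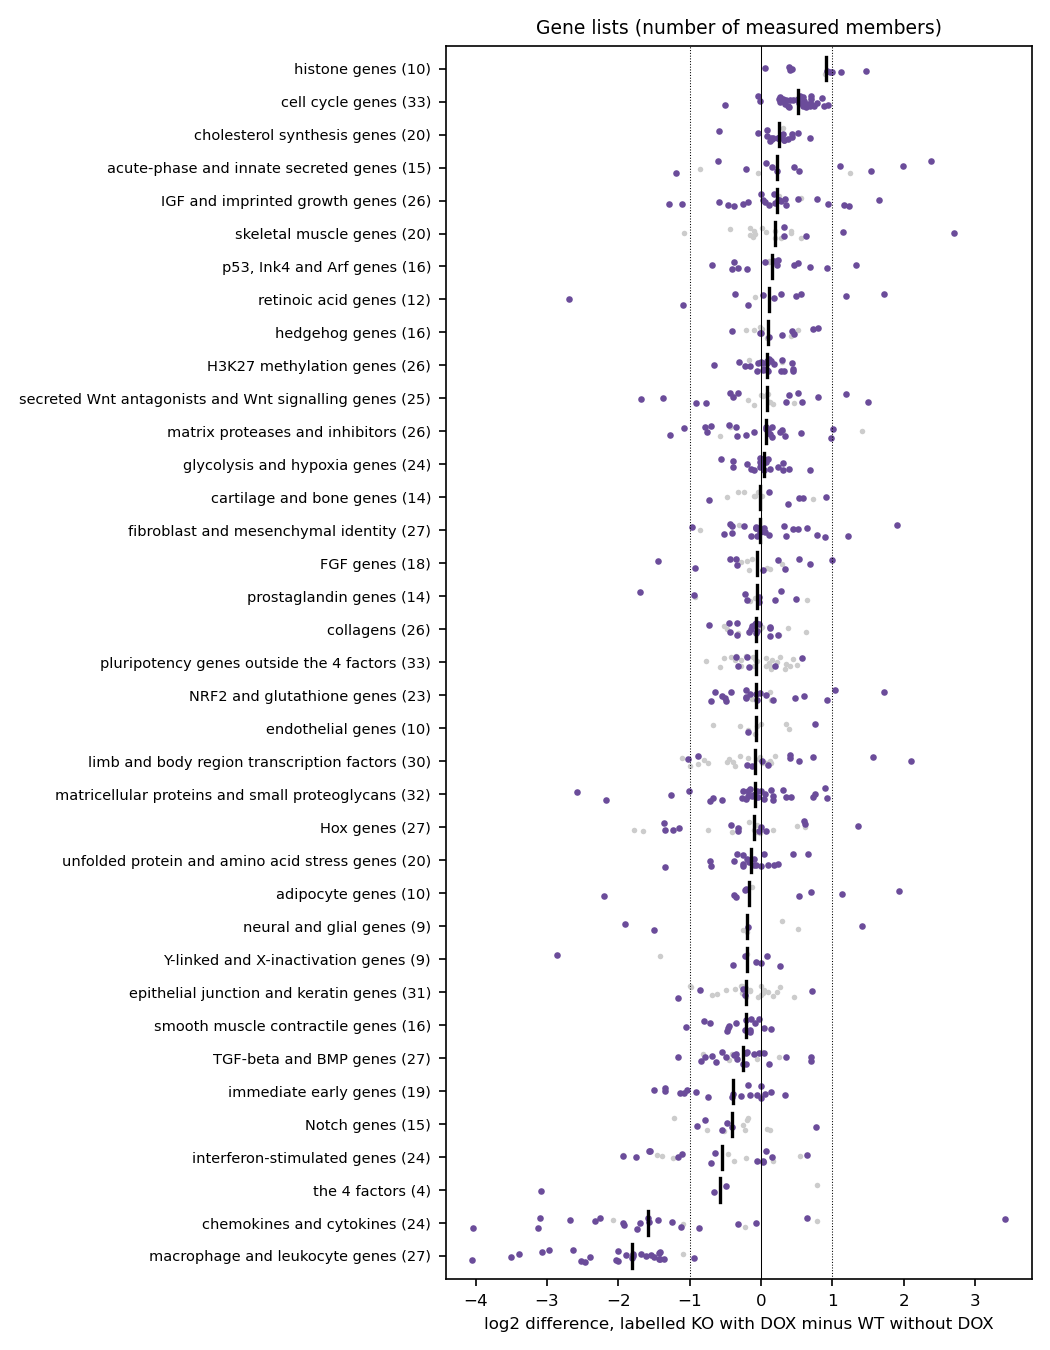
Log2 difference, MEFs labelled KO with DOX minus WT MEFs without DOX, of every measured member of 37 gene lists (purple above the floor, grey under it), with the list median as a black bar and dotted lines at 2-fold. Macrophage and chemokine genes have medians of -1.81 and -1.58, histone genes one of 0.91 and cell cycle genes one of 0.52. The 4 factors are at -0.58, interferon-stimulated genes at -0.55 and Notch genes at -0.41, while all other medians lie nearer to 0.

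Genes that set or read the H3K27 methyl mark, Kdm6a among them, showed no 2-fold difference. Of 23 members above the floor, 0 were 2-fold apart, beside 4.51% of all genes tested in either direction, and the median was 0.09. Ezh2, the methyltransferase that makes the mark, read 10.03 in the library labelled KO with DOX and 9.60 in WT MEFs without DOX. Among Hox genes, which Polycomb complexes control, 4 of 13 above the floor were at least 2-fold lower and 1 was higher. Of all genes tested, 2.63% were lower and 1.88% higher. Hoxc8 read 7.51 and 8.66, Hoxc6 6.49 and 7.84, and Hoxc5 6.22 and 7.57, the neighbours of the run named above. Hoxd11 was at -1.23, and Hoxa2, an anterior member, read 7.54 and 6.18.

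The pluripotency list, epithelial genes and most metabolic lists gave few differences. Of 33 measured pluripotency genes outside the 4 factors, 6 were above the floor and 0 of these were 2-fold apart. Nanog read 5.59 in the library labelled KO with DOX and 5.43 in WT MEFs without DOX. Of 31 measured epithelial genes, 5 were above the floor and 1, the integrin gene Itga6, was lower (-1.16). In all, 10 of the 37 lists had no member 2-fold apart, among them cholesterol synthesis (0 of 19), glycolysis and hypoxia (0 of 23), hedgehog (0 of 9) and Notch genes (0 of 6). Of all genes tested, 4.51% were 2-fold apart in either direction, so counts of 0 in lists this short lie near that share. Of the 19 cholesterol genes, 17 had a difference above 0, beside 51.5% of all genes tested.

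A difference of another kind ran over whole chromosomes. Among genes above the floor on both arrays, those that RefSeq places on chromosome 6 (404 genes) had a median difference of 0.23 and those on chromosome 8 (458 genes) one of 0.22, while the medians of the other 18 chromosomes lay between -0.06 and 0.08. On chromosome 6, 75.5% of genes lay above the median of all other chromosomes, and on chromosome 8 79.5%, against 38.8% to 62.5% on the rest. The shift was spread along both chromosomes. In 8 consecutive parts of about equal gene number the medians ran from 0.16 to 0.30 on chromosome 6 and from 0.15 to 0.29 on chromosome 8. This grouping was made after the values were seen.

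The shift belonged to both KO-labelled MEF libraries and recurred in a pair that shares no array with the first. In the library labelled KO without DOX minus WT MEFs with DOX, chromosome 6 lay 0.24 above all other chromosomes and chromosome 8 lay 0.34 above them. Over the 10 pairs that set a KO-labelled MEF library against 1 of the other 5 arrays, the value ran from 0.17 to 0.28 for chromosome 6 and from 0.22 to 0.36 for chromosome 8. The 2 KO-labelled MEF libraries differed from each other by -0.05 and -0.07. Among the other 5 arrays it ran from -0.12 to 0.05 and from -0.04 to 0.09, and KO minus WT ESCs gave 0.01 and -0.04. The number of copies of these chromosomes was not measured, and its part in the shift was not tested.

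**Figure D5:**
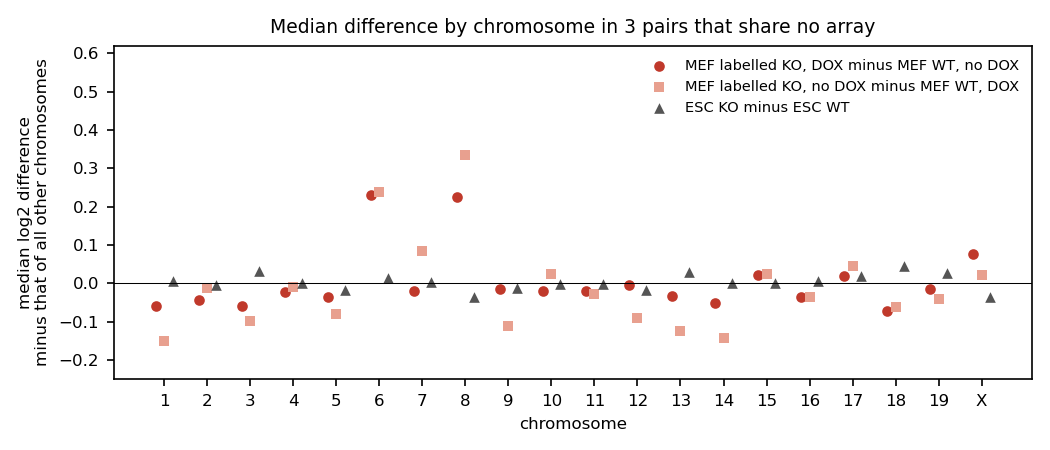
Median log2 difference of the genes of each chromosome minus that of all other chromosomes, for MEFs labelled KO with DOX minus WT MEFs without DOX (red circles), MEFs labelled KO without DOX minus WT MEFs with DOX (pale squares) and KO minus WT ESCs (grey triangles). Chromosomes 6 and 8 stand at 0.23 and 0.23 in the first pair and at 0.24 and 0.34 in the second, while the ESC pair gives 0.01 and -0.04.

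Genes of these 2 chromosomes made up 43 of the 170 higher genes and 16 of the 237 lower ones, beside 962 of the 9024 genes tested. Lower genes were 1.95% of those tested on chromosome 6, 1.40% on chromosome 8 and 2.74% on all others. On chromosome 6, 26 of 462 genes tested were at least 2-fold higher (5.63%), on chromosome 8 17 of 500 (3.40%), and on all others 127 of 8062 (1.58%). Among them were Reg3g, Prokr1, Cpa4, Hoxa2, Sgce, Pparg and Adamts9 of chromosome 6, named above. Chl1, a neural adhesion molecule of chromosome 6, read 8.34 in the library labelled KO with DOX and 6.79 in WT MEFs without DOX, and Mgst1, a membrane-bound glutathione transferase, 9.73 and 8.29. On chromosome 8, Ctxn1 read 10.58 and 8.89, and Mlkl, the effector of necroptosis, 8.10 and 6.69. Without both chromosomes the cell cycle median was 0.48 and the macrophage median -1.80.

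The KO and WT ESCs, which share no array with the pair, were used to see how the same genes stood in libraries labelled as another cell type. Of the 237 lower genes 61 were above the floor in ESCs, and 18 of these (29.5%) were at least 2-fold lower and 0 higher in KO ESCs, where 3.18% of all genes tested were lower and 0.651% higher, 3.83% in all. Of the 170 higher genes 77 were above the floor there, and 0 were higher and 7 (9.09%) lower. Over the 7524 genes above the floor in both pairs, 3.30% were lower and 0.25% higher in KO ESCs. The differences of these genes correlated at r = 0.04 and rho = -0.04, as a description across genes. Lower calls in KO ESCs were thus above their background share among the lower and the higher genes alike, and the 0 higher calls lie near a background of 0.25%.

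The genes lower in both pairs come from several pathways. Ccl2 read 6.27 in KO and 8.29 in WT ESCs, and Ccl7 6.62 and 9.08. Inpp5d, an inositol phosphatase of blood and stem cells, read 8.00 and 9.94 in the ESCs and 5.76 and 7.67 in the MEF pair. Inhba read 7.30 and 10.65 in the ESCs, and Glipr1 6.13 and 8.95. Eif2s3y, Cd44, Cxcl14, Ankrd1, Glrx, Lce1h, Hoxc8, Htr1b, Slco2a1, Crabp2, Des, Ccn4 and Mical2 made up the rest of the 18. Mesenchymal genes as a list were lower in KO ESCs, with 11 of 16 members above the floor at least 2-fold lower, but 0 of 25 in the MEF pair. Of the 10 fibroblast markers, 1 was above the floor in KO ESCs and 6 in WT ESCs. Of 26 measured collagen genes, 2 were above it in KO ESCs and 9 in WT ESCs. The 2 ESC libraries thus differed in fibroblast transcripts, and the part of this in the 18 shared genes was not tested.

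The other MEF pair without a shared array, the library labelled KO without DOX minus WT MEFs with DOX, had many more differences. In it 10.6% of genes tested were at least 2-fold higher and 13.7% lower, 24.3% in all. Of the 170 higher genes, 123 were above the floor there, and 70 (56.9%) were higher and 5 (4.07%) lower. Of the 237 lower genes, 105 were above the floor there, and 50 (47.6%) were lower and 24 (22.9%) higher. Over the 8416 genes above the floor in both pairs, 10.9% were higher and 9.23% lower in this second pair. The differences of these genes correlated at r = 0.33 and rho = 0.36, as a description across genes. The pairs share genotype labels and are opposite in DOX labels.

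The genes higher in both MEF pairs included Gria1 (2.07 and 2.97), Nrn1 (2.03 and 2.21), Ctxn1 (1.69 and 2.01), Peg3 (1.65 and 2.56) and Sim2, a transcription factor of the midline (1.58 and 2.15). Those lower in both included Serpinb2 (-3.31 and -3.18), Gmfg (-2.43 and -2.44), Sema7a (-2.59 and -2.37) and Aldh1a3 (-2.69 and -1.82). Of the 27 macrophage genes only 5 were above the floor in the second pair, 3 of them at least 2-fold higher and 1 lower, so most could not be compared there. In all 3 pairs 3 genes were at least 2-fold lower and 0 higher. These were Eif2s3y, the prostaglandin transporter gene Slco2a1 (-1.69, -1.82 in the second MEF pair and -1.09 in ESCs) and the hyaluronan receptor gene Cd44 (-1.09, -1.55 and -2.61).

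The position of the library labelled KO without DOX was counted for each gene of the pair. Of the 237 lower genes it lay nearer to the library labelled KO with DOX than to WT MEFs without DOX in 216 (91.1%), beside 60.7% of all 9024 genes. The share was 75.1% for WT MEFs with DOX, 88.6% for KO ESCs and 87.8% for WT ESCs, so it was not particular to the KO-labelled MEFs. Of the 170 higher genes the library labelled KO without DOX lay nearer to the library labelled KO with DOX in 81 (47.6%), beside 60.7% of all genes. For the higher genes the share was 16.5% in WT MEFs with DOX and 26.5% and 27.6% in KO and WT ESCs. It was 62.9% in the Nanog KO fibroblasts. WT MEFs without DOX had the highest of the 4 MEF values in 196 of the 237 lower genes, beside 2326 of all 9024. The library labelled KO with DOX had the highest in 127 of the 170 higher genes, beside 2281 of all 9024. These genes were picked for a high value on those arrays, so the counts are a description and support nothing further.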

How the data were processed

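RNA of 7 mouse samples was hybridised to 1 Affymetrix array each. The deposited values are on a log2 scale. The submitters' processing notes name Affymetrix Expression Console and RMA, a method of background correction, normalization across arrays and summary over probes. Neither version nor build was given in the sources used here. Rows of the deposited table numbered 21811, with 0 missing values. Depth has no counterpart on arrays, and 1 array per condition sets the precision.

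Groups came from the sample titles. Rows were named through the platform annotation: 14894 had 1 symbol, 925 with several were not used, and 5992 had no entry. Gene IDs of 14854 named rows were found in RefSeq (GRCm38.p6), used for names, gene order and chromosome. For 754 genes with several rows, the row of highest mean across the 7 arrays was used. A gene was tested where the higher value of a pair exceeded the floor, the 40th percentile (7.34), and counted at 2-fold or more. A fold with its lower side under the floor is given as at least the fold against the floor. The 15 largest differences in each direction and 12 fixed genes (1, Ddx3y, was not measured) are named, with up to 5 leading members of each of 37 lists, members within 2-fold as contrast, genes of neighbour runs and genes shared with other pairs. The members and lists were chosen with earlier results of these data known. Other names, such as the chromosome 6 and 8 genes, were chosen after their values were seen. No test across genes was run; the calling code was checked on simulated data. Alternatives covered scaling, floor, threshold and row choice. Python 3.11.15, numpy 2.4.6, pandas 2.3.3 and matplotlib 3.10.9 were used.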

Additional observations from a re-analysis of the deposited data

How the results depend on the processing

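No value here has a replicate, and no paired analysis was possible because each condition had 1 array. With array medians aligned, 193 genes were higher and 237 lower, and with quantile normalization 177 and 236. With a mean over a gene's rows the counts were 168 and 236. Without a floor they were 241 and 330, and the genes shared with KO ESCs became 29 lower in both, 15 higher here but lower there, and 1 higher in both. With the floor at the 60th percentile (8.48) 107 genes were higher and 131 lower, and 5 lower genes and 0 higher ones were also lower in KO ESCs. At 1.5-fold 698 genes were higher and 590 lower; of the higher ones 43 were lower and 16 higher in KO ESCs, and of the lower ones 55 were lower and 15 higher. At 3-fold 34 were higher and 112 lower, with 1 of the higher and 5 of the lower ones also lower in KO ESCs. Further settings were added after the data were seen: without chromosomes 6 and 8 the counts were 127 higher and 221 lower, and without the macrophage and chemokine lists 169 and 197. The chromosome medians ran from 0.19 to 0.25 (chromosome 6) and from 0.17 to 0.25 (chromosome 8) over scaling, floor and row choice. Of 2373 recomputed values of 791 named or listed genes, 11, in 8 genes, gained or lost the call of a 2-fold difference above the floor, and 0 calls turned direction; genes with a difference close to 0 can change sign with the scaling. The causes of these shifts were not tested beyond what each setting changes by construction.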

Other observations

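Rows that the platform annotation does not list could not be named but were compared in the same way. Of 5992 such rows 2667 were above the floor on at least 1 array of the pair, and 3.75% of those differed by at least 2-fold, with 17 higher and 83 lower on the KO array with DOX in its label relative to WT MEFs without DOX. The X chromosome had the highest median difference among the chromosomes other than 6 and 8, at 0.08 over 253 genes, and chromosome 18 the lowest, at -0.06 over 214 genes.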
